A study of Mus musculus with 3 samples.

Results

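The 38 genes described here drive or restrain the cell cycle, and all 38 were rows of both deposited tables, which list 16157 and 32285 genes and share 15741. They were taken by name: 18 genes of G2 phase and mitosis, 12 of S phase, 5 that drive G1 (the D cyclins Ccnd1, Ccnd2 and Ccnd3 and their kinases Cdk4 and Cdk6) and 3 inhibitors (Cdkn1a, Cdkn1b and Cdkn2c, which encode p21, p27 and p18). RNA was counted in single islet cells of 6 mice that carry Ngn3-CreERT and R26-CAG-TdTomato, all 10 days after tamoxifen. Ngn3 (Neurog3) drives a tamoxifen-dependent Cre recombinase that switches on a red reporter, and there is 1 group, with no untreated or Cre-negative mice analysed here and no age in the labels. The labels pool 2 mice in each of replicates 2 and 3. Replicate 1 is library 1, and replicates 2 and 3 form a joint table that could not be split by sample and counts as 1 library, so that n = 2. Its 3 barcode blocks serve for values, not as replicates.

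A cell enters the cycle when D cyclins with Cdk4 or Cdk6 inactivate the retinoblastoma protein and free E2F factors, which switch on S phase genes. Genes of G2 and mitosis follow, switched on by B-MYB and FOXM1 and held off in resting cells by the DREAM complex. Inhibitors of the INK4 family, such as p18, bind Cdk4 and Cdk6, and those of the CIP/KIP family, p21 and p27, bind cyclin-CDK complexes. Adult islet cells divide rarely, and in mice Ccnd2 and Cdk4 are known to be needed for beta cell mass after birth.

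After filters on genes, UMIs (unique molecular identifiers, which count RNA molecules), mitochondrial RNA and doublets, 853 cells remained in library 1 and 11072 in the joint one. The median was 28551 UMIs per cell in library 1 and 15214 in the joint table. Cells were classed by hormone RNA: beta for insulin (Ins1 and Ins2) at 3000 or more of 10000 UMIs, and alpha, delta and PP for Gcg, Sst or Ppy at 200 or more. This gave 468 and 7018 beta, 104 and 926 alpha, 25 and 230 delta and 18 and 236 PP cells. Cells past several thresholds, 98 and 1079, were kept apart as multi-hormone. Cells past none were given a name with "-like" where at least 3 genes of 1 of 9 marker lists were detected and summed to at least 20 of 10000 UMIs. These 123 and 1512 non-endocrine cells were mostly endothelial-like (28 and 738), macrophage or myeloid-like (44 and 329), pericyte or smooth muscle-like (12 and 158) and fibroblast-like (32 and 82), with 0 and 69 B-like. At most 5 barcodes were shared between library 1 and a block, and at most 6 between blocks. Of 6992 beta cells of the joint table that were not in G2/M, Mafa was detected in 6716 and Nkx6-1 in 6390. Of 226 such delta cells Hhex was detected in 147.

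The G2/M genes were detected together in a small set of cells and rarely elsewhere. Cells with at least 3 of the 18 members detected, called G2/M cells here, were 11 of 853 in library 1, or 1.29% (exact 95% interval 0.645% to 2.30%). In the joint table they were 81 of 11072, or 0.732% (0.581% to 0.908%). The median G2/M cell held 11 of the 18 in both tables. No member at all was detected in 758 and 10558 cells, 1 member in 71 and 406, and 2 members in 13 and 27. At the threshold itself, 2 and 8 cells held exactly 3. Intervals for cells and UMIs cover counting error only.

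**Figure D1:**
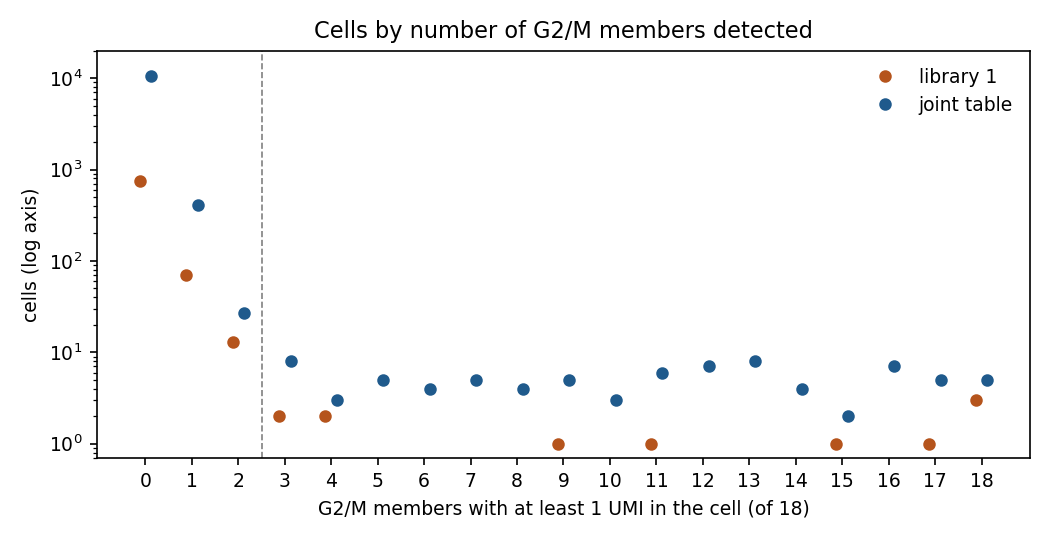
Number of cells (vertical axis, log scale) by the number of G2/M members with at least 1 UMI (horizontal axis) in library 1 and the joint table. The dashed line marks the threshold of 3, and counts fall from 10558 cells with 0 members to 27 with 2 in the joint table, followed by a flat tail that reaches 18.

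To see how far each gene was held by such cells, G2/M cells were found for each member from the other 17 alone. In the joint table these cells, fewer than 1% of all, held 95.9% of the UMIs of Hmmr, a hyaluronan receptor and spindle protein. They held 94.6% for Birc5 (survivin, of the chromosomal passenger complex), 93.1% for Ube2c (a ubiquitin-conjugating enzyme of the anaphase-promoting complex) and 92.7% for Bub1 (a spindle checkpoint kinase). They held 87.7% for Top2a (topoisomerase II alpha) and 81.9% for Mki67 (Ki-67, which coats mitotic chromosomes). A pair of genes stood lower, Ccna2 (cyclin A2, also active in S phase) with 62.7% and Aurka (Aurora kinase A) with 40%. In library 1 the share was 53.3% for Aurka and 76.6% to 100% for the other 17. Outside G2/M cells a member was detected in 0.0273% (Bub1) to 0.546% (Aurka) of cells in the joint table and in 0% (Hmmr) to 2.02% (Cdk1) in library 1. S genes were spread more widely. G2/M cells held 7.33% of the UMIs of Pcna (the DNA polymerase clamp) in the joint table, 37.4% for Mcm5 (of the replicative helicase) and 38% for Rrm2 (a subunit of ribonucleotide reductase). Of the D cyclins they held 0.555% (Ccnd2) to 2.18% (Ccnd3), and of the inhibitor gene Cdkn2c 12.7%, or 18.1% in library 1.

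**Figure D2:**
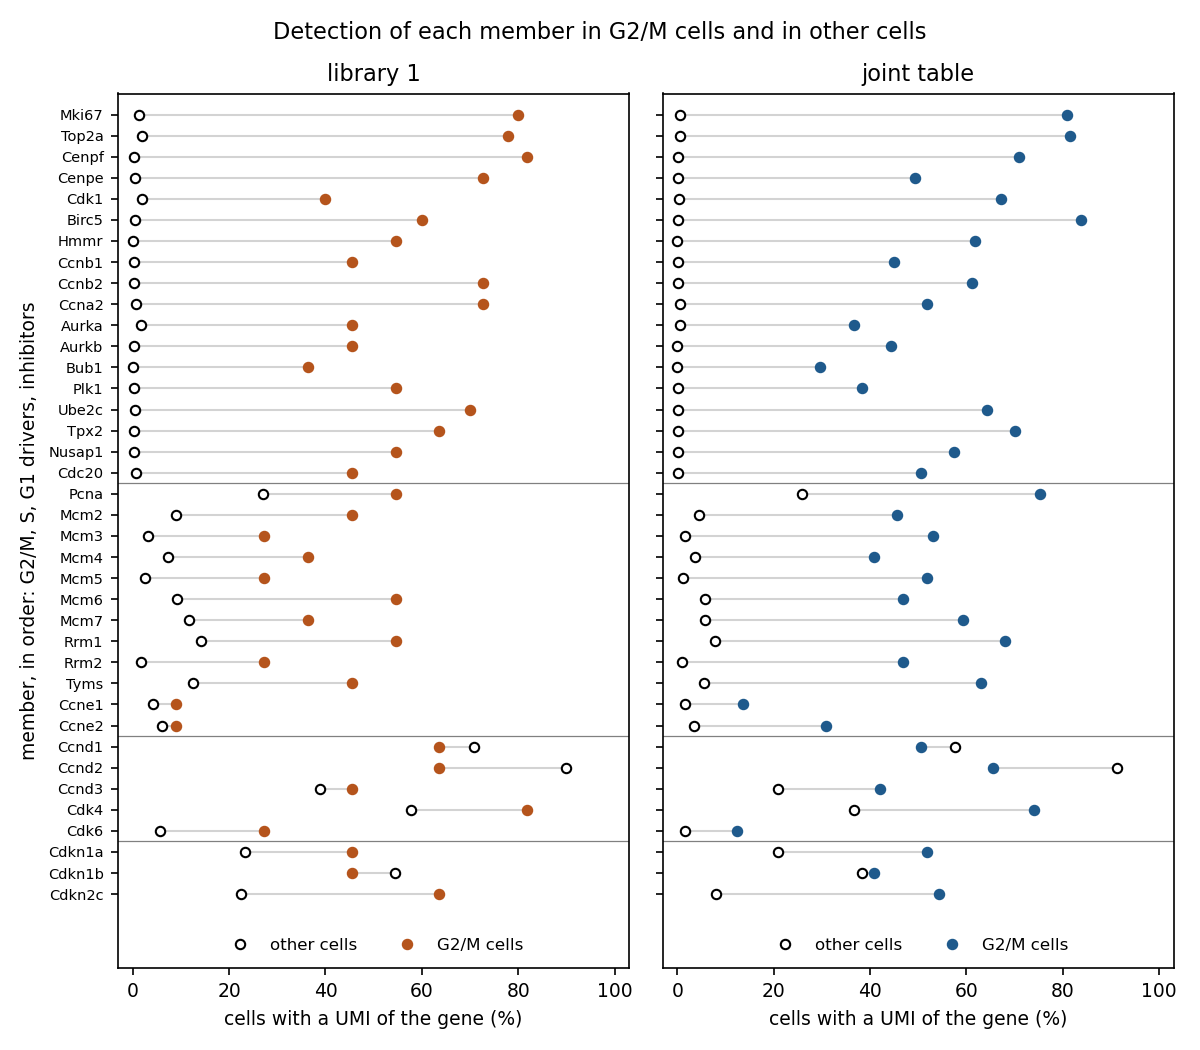
Share of cells with a UMI of each member (horizontal axis, %) in G2/M cells (filled) and in other cells (open), library 1 left and joint table right; each G2/M member is judged in cells chosen by the other 17. In the joint table G2/M members lie at or below 0.546% in other cells, and Ccnd2 is the member with the widest gap in the opposite direction, 65.4% against 91.3%.

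Promoters are shown here because the G2/M members were detected in the same cells. Sequences are those of RefSeq on the GRCm38.p6 build, in a table that held 31 of the 38 members, 15 of them G2/M, 10 S, 3 G1 drivers and 3 inhibitors. The 250 bases before each start were searched on both strands for CCAAT (bound by NF-Y), for TTTGAA (the core of the cell cycle homology region, bound by the DREAM and B-MYB complexes) and for the E2F words TTCCCGC or TTCGCGC, besides TTGCCGC or TTGGCGC. Matches of different motifs may share letters. Capitals mark the matches below, so that ATTGG is a CCAAT on the other strand.
Top2a: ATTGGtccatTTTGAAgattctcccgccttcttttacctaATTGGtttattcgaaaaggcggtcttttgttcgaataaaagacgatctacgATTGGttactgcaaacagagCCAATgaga
Mki67: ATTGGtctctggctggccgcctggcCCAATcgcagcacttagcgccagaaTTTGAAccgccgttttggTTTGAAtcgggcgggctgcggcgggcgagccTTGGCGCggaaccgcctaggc
Hmmr: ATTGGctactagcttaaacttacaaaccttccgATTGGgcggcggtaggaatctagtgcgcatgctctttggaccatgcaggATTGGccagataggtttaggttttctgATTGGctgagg
Ccnb2: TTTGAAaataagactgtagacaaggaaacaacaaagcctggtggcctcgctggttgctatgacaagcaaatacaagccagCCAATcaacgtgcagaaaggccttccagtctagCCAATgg
Mcm6: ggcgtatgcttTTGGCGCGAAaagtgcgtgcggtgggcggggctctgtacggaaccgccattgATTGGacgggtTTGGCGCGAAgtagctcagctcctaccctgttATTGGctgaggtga
Mcm5: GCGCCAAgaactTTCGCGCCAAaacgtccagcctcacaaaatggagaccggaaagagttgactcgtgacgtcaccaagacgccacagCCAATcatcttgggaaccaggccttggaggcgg
These lie at chr11:99024259-99024378, minus strand, chr7:135716426-135716545, minus strand, chr11:40733447-40733566, minus strand, chr9:70421602-70421721, minus strand, chr1:128359706-128359825, minus strand and chr8:75109345-75109464, plus strand, upstream of the genes' annotated starts. Among G2/M members 13 of 15 held a CCAAT, and 11 held at least 2. At least 1 was held by 34.5% of the 27025 genes listed, and at least 2 by 10.5%. TTTGAA was in 6 of the 15 G2/M members, each together with CCAAT, while 5.73% of all genes held both. Of the 10 S members 8 held a CCAAT, 5 an E2F word and 1 TTTGAA, against 34.5%, 7.97% and 16.3% of all genes. Among the 8034 listed genes that entered the fits described below, these shares were 35.3%, 14.4% and 9.62%. At least 2 CCAAT were held by 13.1% of these, and CCAAT with TTTGAA by 3.41%. None of the 3 G1 drivers held any of the motifs. A match is a stretch of letters, and binding was not measured.

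G2/M cells were rare among beta cells, and their share was higher among non-endocrine cells in both tables, with intervals that overlap in library 1 and are apart in the joint table. The difference was not tested over samples. Among beta cells 3 of 468 were G2/M cells in library 1, or 0.641% (0.132% to 1.86%), and 26 of 7018 in the joint table, or 0.370% (0.242% to 0.542%). The blocks gave 14 of 3148, 5 of 1594 and 7 of 2276. Of these 26 cells, Nkx6-1 was detected in 25, Mafa in 24 and Ucn3, a gene of mature beta cells, in 22, so that their beta label does not rest on insulin alone. Of the marker lists of other cells, no gene of the T or NK list and none of Pecam1, Cdh5, Col1a1, Col3a1, Cd79a or Cd79b was detected in the 26. The endothelial, fibroblast and B lists hold further genes that are not given here, so that absence is stated for the named genes alone. C1qa, a macrophage gene, was in 14 of them and in 1696 of the other 6992 beta cells, while C1qb was in 1 and 41; its part in the result was not tested. In library 1 the 3 beta cells held a median of 4 G2/M members, and 1 of them held 5 or more. Among alpha cells G2/M cells were 0 of 104, where 3 counts would be 2.88% and the exact interval reaches 3.48%, and 2 of 926, or 0.216% (0.0262% to 0.778%). Among delta cells they were 0 of 25 (3 counts 12.0%, exact upper bound 13.7%) and 4 of 230, or 1.74% (0.476% to 4.39%). Of those 4 delta cells, Rbp4 was detected in 4 and Hhex in 3. PP cells gave 0 of 18 (3 counts 16.7%, exact upper bound 18.5%) and 1 of 236, or 0.424% (0.0107% to 2.34%). The 4 intervals of the joint table overlap, beta and delta only between 0.476% and 0.542%, and the differences between these classes were not tested.

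Among non-endocrine cells 6 of 123 were G2/M cells in library 1, or 4.88% (1.81% to 10.3%), and 34 of 1512 in the joint table, or 2.25% (1.56% to 3.13%). The blocks gave 2.08%, 2.39% and 2.39%. B-like cells stood highest, with 15 of 69, or 21.7% (12.7% to 33.3%), spread over the blocks as 6 of 31, 4 of 15 and 5 of 23. In all 15, Cd79a, Cd79b and Ms4a1 were detected, and C1qa, C1qb and Cd3e in none. These genes belong to the lists by which cells were named, so that they describe the cells and are no separate check of the name. Fibroblast-like cells gave 3 of 32 and 6 of 82 (7.32%, 2.73% to 15.2%). Macrophage or myeloid-like cells gave 2 of 44 and 7 of 329 (2.13%, 0.860% to 4.33%). Endothelial-like cells gave 1 of 28 and 4 of 738 (0.542%, 0.148% to 1.38%), an interval that holds the beta share. Pericyte or smooth muscle-like cells gave 0 of 12 and 0 of 158 (of 158 cells, 3 counts are 1.90%, and the exact upper bound is 2.31%). B-like cells were thus 15 of the 34 non-endocrine G2/M cells of the joint table, and library 1 held none.

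Depth moved with the G2/M count: in the joint table the median of G2/M and other cells was 30988 against 19926 UMIs in beta cells and 7771.5 against 2808 in non-endocrine cells. Each cell was therefore also thinned to 1500 UMIs outside 7 hormone genes (Ins1, Ins2, Iapp, Gcg, Sst, Ppy and Pyy), leaving out 161 beta and 242 non-endocrine cells that were shallower. The share of the joint table was then 0.219% of beta cells (0.122% to 0.361%), 1.65% of non-endocrine cells (1.03% to 2.52%) and 19% of B-like cells (9.87% to 31.4%). In library 1 it was 1 of 465 beta cells (0.215%, 0.00544% to 1.19%) and 4 of 118 non-endocrine cells (3.39%, 0.931% to 8.45%), and these intervals overlap. The fibroblast-like share of the joint table fell from 6 of 82 to 1 of 70. Only 1 of 377 cells removed as doublets in the joint table, and 0 of 6 in library 1, was a G2/M cell.

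**Figure D3:**
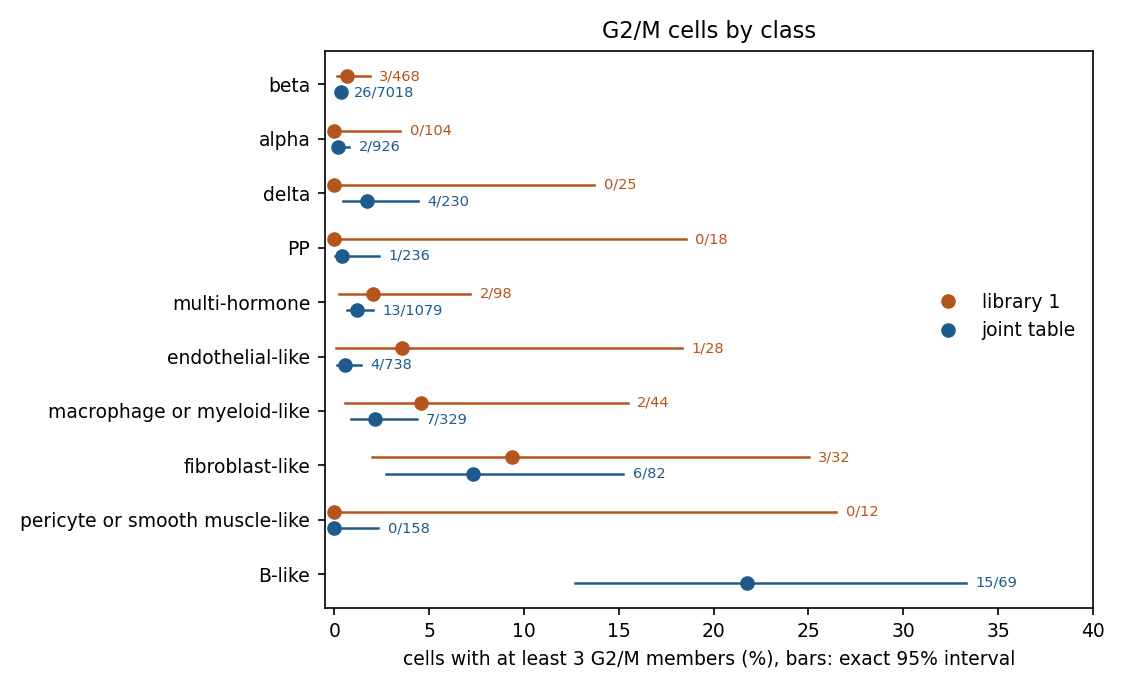
Share of G2/M cells (horizontal axis, %) in each class with its exact 95% interval, in library 1 and the joint table, with the count of G2/M cells over all cells of the class. Beta cells lie at 0.641% and 0.370%, and B-like cells of the joint table at 21.7%.

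Levels of the S and G2/M genes were compared between classes over the 2 libraries with limma, on log2 of the class mean per 10000 UMIs plus 0.05, and called where the p, adjusted by Benjamini-Hochberg across the whole table, was under 0.05. Only 1 of the 18 G2/M members (Top2a) and 7 of the 12 S members passed the filter on low values. Of these 8, limma called 0 between alpha and beta cells (0 at an unadjusted p under 0.05), where 9.78% of all genes tested were called, 4.96% higher and 4.81% lower. On summed UMIs edgeR called 2 (background 20.3%) and DESeq2 called 1 (15.1%). Between delta and beta cells it called 0 as well (1, Mcm6, at an unadjusted p under 0.05), where 17.7% of all genes were called, 6.9% higher and 10.8% lower. Here edgeR called 3 (11.7%) and DESeq2 called 1 (9.69%). Between non-endocrine and endocrine cells (the mean of beta, alpha and delta), it called 3, all higher in non-endocrine cells, where 59.2% of all genes were called, 27.1% higher and 32.1% lower. The median difference of the 8 was 0.46 (log2), beside -0.12 for all genes. Without centring of the columns the calls over all genes split as 36.1% higher and 2.18% lower in alpha, 56.7% and 1.46% in delta, and 46.4% and 15.7% in non-endocrine cells. The 3 comparisons share beta cells and are not independent of each other.

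Top2a (chromosome 11, 98992943 to 99024189, mm10) was at 59.97 CPM (UMIs of the gene in 1000000 UMIs outside 7 hormone genes) in non-endocrine cells of library 1 and at 41.5, 53.4 and 45.4 in the blocks. In beta cells it was at 5.95, 4.77, 2.06 and 5.44, in alpha cells at 5.47, 1.22, 5.05 and 10.4, and in delta cells at 4.54, 35.6, 0 and 18.8. Non-endocrine cells were thus above each endocrine class in each library and block, and delta cells varied most. The limma difference was 1.67 on the log2 scale (SE 0.34, adjusted p = 0.0031), as 2.28 in library 1 and 1.06 in the joint table. Top2a passed the filter through both non-endocrine columns and 1 endocrine column. Pcna (chromosome 2, 132249162 to 132253314) was at 43.8 in non-endocrine cells of library 1 and 102, 109 and 110 in the blocks, against 24.1, 50.5, 55.9 and 58.6 in beta cells. Its difference was 0.99 (SE 0.18, adjusted p = 0.0015 by limma), and the adjusted p was 0.065 with no replicate block. Mcm3, another helicase subunit, was at 16.1, 43.4, 48.5 and 50.1 against 1.10, 1.17, 1.5 and 0.826 in beta cells. Its difference was 1.45 (SE 0.24, adjusted p = 0.0011 by limma), but it passed the filter through the non-endocrine columns alone, so that it had to differ. The other 5 S members tested (Mcm4, Mcm6, Mcm7, Rrm1 and Tyms) differed by 0.01 to 0.49 and were not called.

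Tests on summed UMIs, which keep low genes, called many more. In edgeR 16 of the 16 G2/M members tested and 9 of the 12 S members were higher in non-endocrine cells, where 31.9% of 12953 genes were called higher. In DESeq2 these were 18 of 18 and 9 of 12, where 29.1% of 15502 were. The edgeR test also left out low genes. Members it kept may have entered through the non-endocrine sums, which was not checked. The summed level of the 18 G2/M members was 49.8 and 31.3 CPM in beta cells of library 1 and the joint table, and 509 and 260 in non-endocrine cells. Of those UMIs G2/M cells held 84.9% and 80.3% in beta cells and 94.9% and 93.2% in non-endocrine cells. The G2/M members called on sums thus rest largely on the same non-endocrine cells, 6 in library 1 and 34 in the joint table. Their calls are not separate results. The summed level of the 12 S members was 88.4 and 123 in beta cells and 224 and 319 in non-endocrine cells, of which G2/M cells held 3.36% and 6.67%, and 27.4% and 30.7%.

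Resting cells were those with at most 1 UMI over the 18 G2/M members, a choice that does not use the D cyclins, their kinases or the inhibitors. All 8 of these members were tested. The choice does not leave out cells in S phase. In non-endocrine cells of the joint table Pcna was at 0.813 per 10000 UMIs in resting cells and 0.871 in all. Shallow cells also pass it more easily, and the median there was 2830 UMIs in non-endocrine and 19956.5 in beta cells. Between alpha and beta cells limma called 0 of 8 (1, Cdkn1b, at an unadjusted p under 0.05), where 9.8% of all genes were called, and edgeR and DESeq2 called 1 each (22.0% and 15.8% of all genes). Between delta and beta cells it called 2, where 17.8% were called, and edgeR called 1 (12.9%) and DESeq2 called 0 (10.2%). Between non-endocrine and endocrine cells it called 6, of which 5 were higher and 1, Ccnd2, lower. In that comparison 59.7% of all genes were called, 27.3% higher and 32.4% lower. Of the 6, Cdk6 had to differ because it passed the filter through the non-endocrine columns alone, and 5 of the other 7 were called. Nothing particular to these members is read from the count. The median difference of the 8 was 0.13, -0.37 and 0.64 (log2) in the 3 comparisons. Levels below are CPM, while limma differences are relative to all UMIs with columns centred on their median.

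Ccnd2 (cyclin D2, chromosome 6, 127125162 to 127152193) was at 1349 in resting beta cells of library 1 and at 1796, 1818 and 1723 in the blocks, and it was detected in 98.0% of resting beta cells of the joint table. Alpha cells were at 1227, 1605, 1687 and 1606, delta cells at 1026, 1232, 1275 and 1185, and PP cells at 521, 800, 1013 and 822. On this hormone-free scale the order beta, alpha, delta, PP held in library 1 and in each block. It turns with the scaling: per 10000 of all UMIs, where hormone RNA counts in the total, resting cells of library 1 and the joint table were at 4.37 and 5.62 in beta, 9.13 and 10.05 in alpha, 7.10 and 8.26 in delta and 2.68 and 3.63 in PP cells. On centred columns limma called neither alpha (0.31, SE 0.18) nor delta cells (-0.27, SE 0.18) different from beta cells, and PP cells were too few for a fit. Non-endocrine cells were at 159, 407, 375 and 400, which gave -2.01 (SE 0.15, adjusted p = 9.27e-06 by limma), as -2.32 in library 1 and -1.69 in the joint table. They were not alike among themselves. Pericyte or smooth muscle-like cells were at 691, 1004, 907 and 721 and endothelial-like cells at 398, 555, 427 and 494. Macrophage or myeloid-like cells were at 19.5, 94.1, 87.0 and 115, fibroblast-like cells at 54.2, 175, 113 and 53.1, and B-like cells of the blocks at 114, 41.8 and 43.4.

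Free beta cell RNA was gauged by insulin, which in resting macrophage or myeloid-like cells of the joint table was 5.15% of its level in beta cells. If all of their Ccnd2 had come with that insulin, its level would be 91.5, and 98.0 was measured. In B-like cells 106 would be reached and 76.0 was measured. The measured levels of both classes lie near or below what free RNA alone would give on this gauge, and were not tested further. In endothelial-like cells 78.8 would be reached and 502 was measured, and in pericyte or smooth muscle-like cells 139 and 885. In library 1, with insulin at 0.735% of the beta level in macrophage or myeloid-like cells, 9.92 would be reached and 19.5 was measured.

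Ccnd1 (cyclin D1, chromosome 7, 144929931 to 144939925) had another pattern. Pericyte or smooth muscle-like cells were highest with 345, 570, 641 and 664, followed by endothelial-like cells with 330, 372, 444 and 403. Delta cells were at 231, 264, 301 and 322, beta cells at 183, 220, 216 and 208, PP cells at 159, 212, 220 and 191, and alpha cells at 127, 150, 144 and 161. Delta cells were above beta cells in library 1 and in each block. The difference was 0.60 (SE 0.15, adjusted p = 0.027 by limma), but it was 0.40 (adjusted p = 0.11) relative to non-hormone UMIs, and 0.22 (adjusted p = 0.55) in edgeR. It was not called with no replicate block either (adjusted p = 0.066). Not all non-endocrine classes were high. In library 1 and the joint table macrophage or myeloid-like cells were at 50.7 and 94.8 and fibroblast-like cells at 110 and 24.5. B-like and Schwann-like cells of the joint table were at 7.60 and 140. These lay below beta cells (183 and 215), while non-endocrine cells together were at 172 and 312. By limma non-endocrine cells were higher than endocrine cells by 0.50 (SE 0.12, adjusted p = 0.0066). The difference was not called when all cells below the hormone thresholds were taken as non-endocrine (0.35, adjusted p = 0.053 by limma). Ccnd3 (cyclin D3) was at 37.9, 36.5, 37.7 and 33.5 in beta cells and at 129, 125, 125 and 135 in endothelial-like cells, and B-like cells of the blocks were at 276, 83.6 and 130. In library 1 and the joint table fibroblast-like cells were at 47.2 and 102 and pericyte or smooth muscle-like cells at 69.1 and 62.6. Macrophage or myeloid-like cells, at 31.2 and 17.2, lay below beta cells (37.9 and 35.8). As a whole, non-endocrine cells were higher by 0.92 (SE 0.17, adjusted p = 0.0017 by limma).

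Of the partner kinases, Cdk4 was called in none of the 3 limma comparisons, with 104 and 87.6 in beta cells and 98.9 and 76.9 in non-endocrine cells of library 1 and the joint table. Its differences were -0.25 (SE 0.21), -0.47 (SE 0.21) and 0.11 (SE 0.17) for alpha against beta, delta against beta and non-endocrine against endocrine cells. Cdk6 was detected in 0.459% of resting beta cells of the joint table, at 0.693, and was at 0.319 in library 1. It was at 46.8, 82.1, 35.8 and 47.0 in macrophage or myeloid-like cells and at 69.1, 60.8, 36.3 and 66.4 in pericyte or smooth muscle-like cells. Fibroblast-like cells were at 71.7, 71.6, 0 and 79.6, where the block at 0 allows up to the level of 3 UMIs. Non-endocrine cells were higher by 1.93 (SE 0.22, adjusted p = 9.05e-05 by limma), but Cdk6 passed the filter through the non-endocrine columns alone.

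Among the inhibitors, Cdkn1a (p21, a target of p53) was at 29.9, 56.2, 52.0 and 56.8 in resting beta cells, at 300, 180, 184 and 194 in endothelial-like cells and at 226, 108, 128 and 98.3 in macrophage or myeloid-like cells. Other non-endocrine classes were not all high: fibroblast-like cells were at 154, 39.8, 0 and 26.5, pericyte or smooth muscle-like cells at 23.0, 129, 36.3 and 18.96, and B-like cells at 0 in each block. As a whole, non-endocrine cells were higher by 2.04 (SE 0.24, adjusted p = 0.00011 by limma). Delta cells were at 13.6, 36.7, 16 and 11.8, below beta cells in library 1 and each block, with a difference of -0.88 (SE 0.29) that was not called (adjusted p = 0.069). Cdkn1b (p27) lay between 74.3 and 112 in resting beta, alpha and delta cells of each library and block, and was called in no comparison. Cdkn2c (p18) was low in resting delta cells, at 4.54, 2.29, 8.02 and 11.8, against 22.5, 13.5, 13.9 and 14.9 in beta cells. The difference was -1.30 (SE 0.29, adjusted p = 0.020 by limma), with -1.52, -1.48, -1.10 and -0.56 in library 1 and the blocks. It was not called in DESeq2 (-1.48, adjusted p = 0.13), with stricter hormone thresholds (adjusted p = 0.069) or without centring of columns (-0.40, adjusted p = 0.27). Pericyte or smooth muscle-like cells were at 161, 30.4, 60.5 and 66.4, the first from 11 cells. Non-endocrine cells were higher by 0.78 (SE 0.24, adjusted p = 0.019 by limma), but it was not called with stricter hormone thresholds (0.69, adjusted p = 0.14) or without barcode block 1 (0.67, adjusted p = 0.063).

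**Figure D4:**
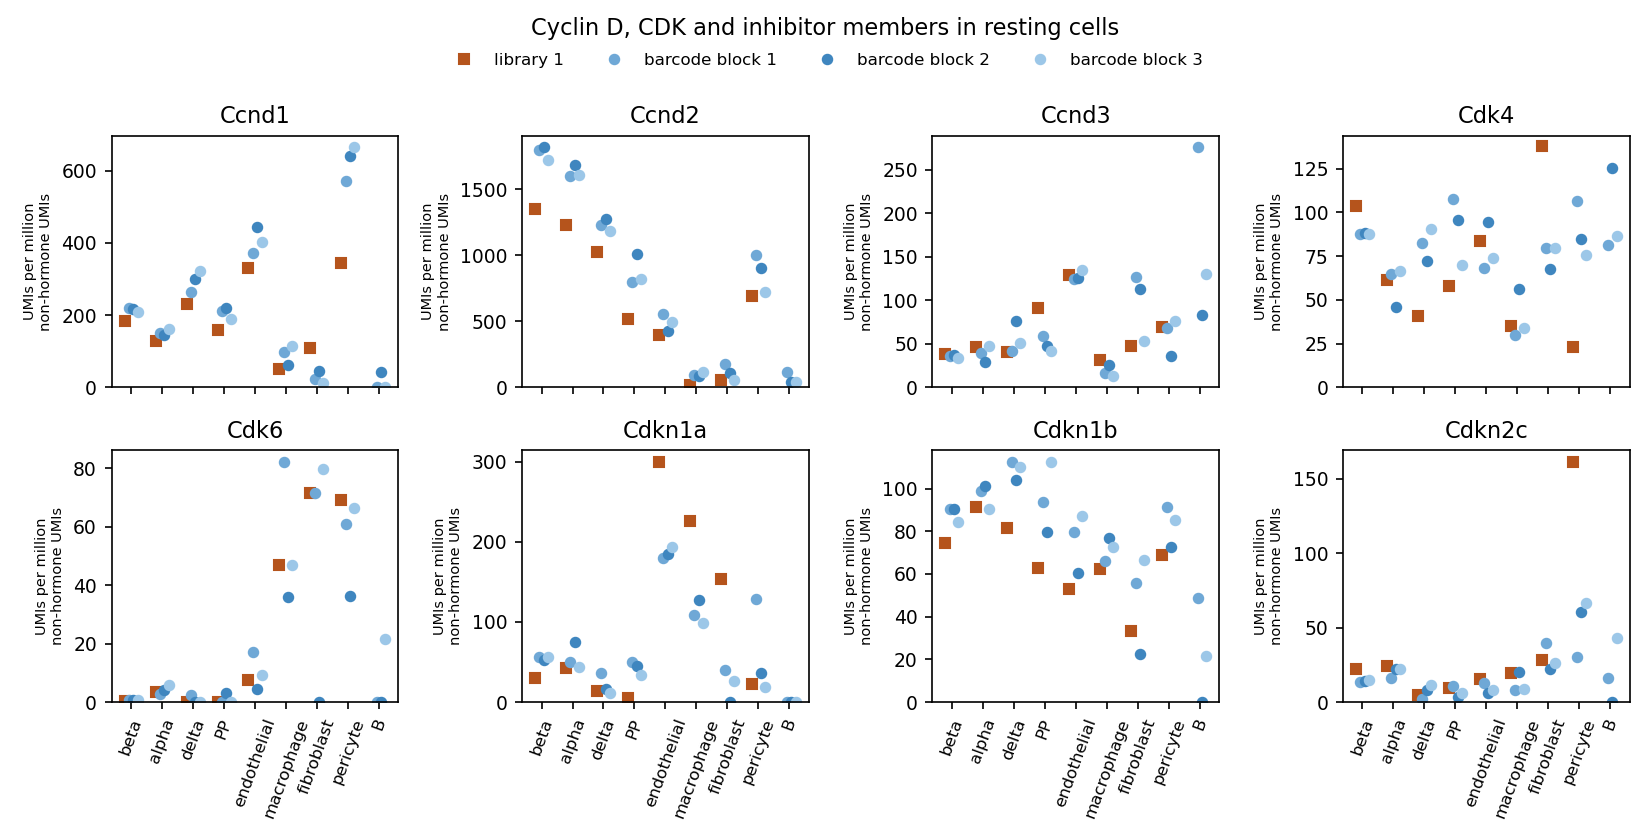
Levels of the 8 G1 and inhibitor members in resting cells (vertical axis, CPM) by class, with library 1 as squares and the 3 barcode blocks of the joint table as circles. Ccnd2 falls from 1349 to 1818 in beta cells to 19.5 to 115 in macrophage or myeloid-like cells, and Cdk6 is at or below 0.753 in beta cells.

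Beta cells in G2/M could be set against other beta cells for genes that did not choose them. These are values of cells within a table, with exact Poisson intervals and no test. Ccnd2 was lower in the 26 G2/M cells of the joint table, at 1039 (920 to 1169) against 1779 (1767 to 1791), as 1074, 1005 and 999 against 1796, 1820 and 1724 in the blocks. In library 1 it was 536 in 3 cells against 1341. Cdkn2c was the inhibitor with the widest gap, at 282 (222 to 354) against 14.2 (13.1 to 15.3). It was 173, 263 and 470 against 13.5, 14 and 15.2 in the blocks and 329 against 22.6 in library 1, all of it from 1 of the 3 cells. It was detected in 19 of the 26 cells and in 8.78% of the others. Cdkn1a was at 154 (111 to 209) against 55.6 and Cdkn1b at 120 (82.4 to 170) against 88.3. In library 1 Cdkn1a was at 34.6 (4.19 to 125) in the 3 cells. Cdk4 was at 154 (111 to 209) against 87.9, Ccnd1 at 173 (127 to 231) against 215, and no Cdk6 UMI was found in the 26.

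The S genes were higher in the G2/M beta cells of the joint table. Pcna was at 471 (392 to 561) against 51.9, Mcm7 at 158 (114 to 214) against 8.72, Mcm6 at 124 (85.5 to 174) against 7.36, and Mcm5 at 75.3 (46.0 to 116) against 1.10. Tyms, which makes thymidylate for DNA, was at 120 (82.4 to 170) against 8.91, and Ccne2 (cyclin E2, which acts at the start of S phase) at 82.8 (51.9 to 125) against 6.04. The median such cell held 6 of the 12 S members, and other beta cells 0. In library 1, with 3 cells, the median was 2, and Pcna was at 17.3 against 24.2.

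**Figure D5:**
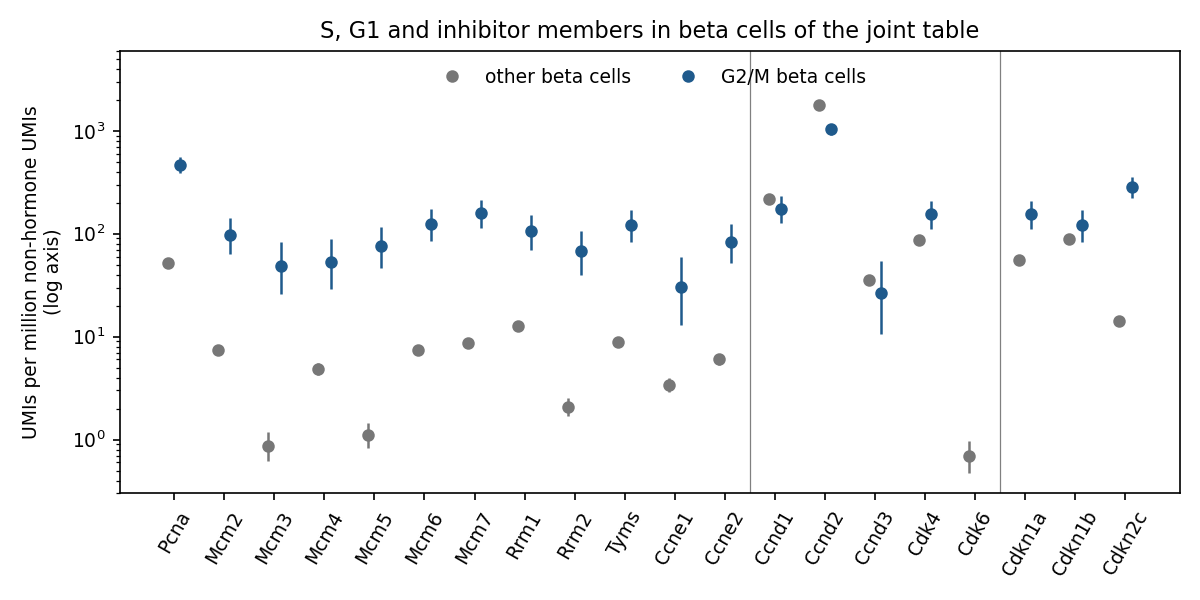
Levels of S, G1 and inhibitor members in beta cells of the joint table (vertical axis, CPM, log scale) in 26 G2/M cells and 6992 others, with exact 95% Poisson intervals. The 12 S members and Cdkn2c lie above the other beta cells, and Ccnd2 lies below them (1039 against 1779). Cdk6 has no point in G2/M cells because no UMI was found.

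The same genes were read in the G2/M cells of other classes. Ccnd2 was at 165 (45.1 to 424) in the 4 delta cells against 1230 in other delta cells, and at 1211 against 1438 in multi-hormone cells. Among non-endocrine cells it was at 114 against 392, a group whose G2/M cells hold more B-like cells than the rest. Cdkn2c was at 414 against 6.38 in delta cells, 106 against 12.2 in multi-hormone cells and 67.0 against 16 in non-endocrine cells. In library 1 it was at 267 against 31.4 in non-endocrine cells. B-like cells differed, with Cdkn2c at 19 in G2/M cells and 25.3 in the others. Cdkn1a was at 248 against 24.5 in delta cells and at 191 against 36.7 in multi-hormone cells, but at 47.5 against 134 in non-endocrine cells and at 0 in B-like cells of both kinds. These classes hold few G2/M cells, and the differences between classes were not tested.

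Of 56 further genes of the pathway (E2F factors, retinoblastoma family, licensing, mitotic kinesins and growth arrest genes), 26 passed the filter. Between alpha and beta cells limma called 2 of 26: Tubb5, a beta-tubulin, was higher by 1.08 (SE 0.14) and Bmi1, a Polycomb subunit that represses Cdkn2a, lower by -1.17 (SE 0.22). Between delta and beta cells it called 3, with Tubb5 higher by 0.89, Hmgb2 (a chromatin protein) higher by 0.75, and Bmi1 lower by -1.50. Hmgb2 was at -0.01 in barcode block 2. Between non-endocrine and endocrine cells 7 were higher and 4 lower. These counts depend on the scaling and the test: without centring they were 7 higher and 0 lower in alpha cells, so that Bmi1 was not called lower there, 12 and 1 in delta cells and 15 and 2 in non-endocrine cells. In non-endocrine cells edgeR called 24 higher and 3 lower of 44 tested, and DESeq2 29 and 2 of 55. The largest limma differences were Cks2 (a CDK-binding protein) with 2.49 (SE 0.45), Stmn1 (stathmin, which destabilises microtubules) with 2.33 (SE 0.55) and Tubb5 with 1.70 (SE 0.12), and, lower, Tob1 (antiproliferative) with -1.24 (SE 0.13), Cdc25a (a phosphatase that activates CDKs) with -1.22 (SE 0.25) and Wee1 (a kinase that inhibits Cdk1) with -0.92 (SE 0.26). Cks2 and Stmn1 were 3.52 and 3.29 in library 1 and 1.47 and 1.37 in the joint table. Which columns carried the genes of this list past the filter was not checked, so that some may have had to differ. How much of their RNA lay in G2/M cells was not checked either. The 3 counts stand beside 9.78%, 17.7% and 59.2% of all genes called.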

How the data were processed

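RNA of dissociated islet cells was counted with the 10x Genomics 3-prime system in 3 samples from 6 mice. Library 1 was deposited by the authors as raw UMI counts. The joint table was deposited as natural log values: the ln of 1 plus UMIs per 10000, checked on the values, of which 100% were whole multiples of the smallest of their cell within 0.001, so whole UMIs were recovered. Per the submitters' processing notes, Cell Ranger 3.2.0 and 5.0.0, cutadapt 2.5, FastQC 0.11.8 and Seurat 4.0.0 were used on mm10. Of 16050 joint columns 3008 were exact copies and were dropped.

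Cells needed 500 genes, 1000 UMIs and at most 20% mitochondrial UMIs, and the highest Scrublet scores (0.8% per 1000 cells) were removed. Library 1 held 27474046 UMIs and the blocks 91385979, 45329534 and 60117836. Class means (at least 20 cells in both tables, so PP cells were not fitted) were compared with limma 3.58.1 (R 4.3.3), with the library as a block and a trend, for genes with 0.1 per 10000 in 2 or more columns. The filter left 10137 genes (10121 in resting cells). edgeR 4.0.16 and DESeq2 1.42.0 ran on summed UMIs as alternatives, and the limma step was tested on simulated data. With the library as a block, p-values measure how far differences between classes disagree between the 2 libraries, which differ in mice and software. The spread is shared by all classes fitted and moderated across genes, so that it is not a spread between mice. All members were named or counted, and any past the threshold was given in full. From the pathway list the 3 largest changes per direction were named. The members, lists and thresholds were chosen with earlier results of these data known. Of the members 18 overlap another annotated gene, and none a protein-coding gene on the same strand.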

Additional observations from a re-analysis of the deposited data

Results flagged for a closer look

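Multi-hormone cells, which passed more than 1 hormone threshold and enter no comparison, held G2/M cells in the joint table: 13 of 1079, or 1.2% (0.643% to 2.05%). In the blocks these were 2 of 451, 6 of 266 and 5 of 362. In library 1 they were 2 of 98. After thinning the joint share was 0.770% (0.333% to 1.51%). By hormones, 5 of the 13 were among 362 cells with Sst and Ppy, 2 among 256 with Gcg and Ppy, 2 among 90 with Gcg and Sst, and 4 among cells with insulin and another hormone. Their median depth was 20407 UMIs against 10453 in other multi-hormone cells. Whether doublets have a part in this share was not tested.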

How the results depend on the processing

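Of 182 alternatives for 11 named member results, 170 were counted as the same, 12 kept the direction and lost the call, and 0 reversed. The 170 include, for each result, the values of each library alone, which have no test and can show direction only. They also include those of Mcm3 and Cdk6, which passed the filter through the non-endocrine columns alone, and of Top2a, which nearly did. Counts of S and G2/M members called moved as follows. Between alpha and beta cells (0) they were 1 in DESeq2, 2 in edgeR, 2 without centring and 3 without the filter. Between delta and beta cells (0) they were 1 in DESeq2, 3 in edgeR, 5 without centring, 4 without the filter, and 1 each with hormone-free totals, a pseudocount of 0.01 and stricter hormone thresholds. Between non-endocrine and endocrine cells (3) they were 27 in DESeq2, 25 in edgeR, 8 without centring, 11 without the filter (9 higher, 2 lower) and 5 with hormone-free totals. The G2/M members among these were detected together in the same few cells and are not separate results. For the 8 G1 and inhibitor members in resting cells, alpha against beta (0) gave 1 in DESeq2, 1 in edgeR and 5 without centring. Delta against beta (2) gave 0 in DESeq2, 1 in edgeR, 4 without centring, and 1 each with hormone-free totals and a pseudocount of 0.01. With no replicate block it gave 1, which was Cdkn2c. The beta share of the joint table was 0.219% after thinning (0.370% before). The causes of these moves were not tested, except that tests without the filter and on sums take in more members. Leaving out each block in turn gave 0 to 0, 0 to 0 and 3 to 4 S and G2/M members, 0 to 0, 2 to 2 and 5 to 6 resting members, beta shares of 0.310% to 0.401% and non-endocrine shares of 2.19% to 2.39%. Without centring the median difference of all genes was 0.58, 0.82 and 0.46 (log2) in the 3 comparisons of all cells. With centring it was -0.06, -0.09 and -0.12. Leaving out a whole library leaves no residual degrees of freedom and gives values with no test. PP against beta was not run, because library 1 holds 18 PP cells. Of the 18 G2/M members 17 fell under the filter on class means and have no limma value.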
